A study of Mus musculus with 3 samples.

Results

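The genes described here are 54 genes of DNA replication and S phase, chosen by name for their function: the factors that license origins and start forks, the sliding clamp and its loader, the replicative polymerases and primase, strand maturation and single-strand binding factors, enzymes of nucleotide supply, cyclin E with transcription factors of the G1/S switch, chromatin assembly factors, and Brca1 and Brca2. All 54 were found among the 19751 genes that could be named on the arrays, and all 54 were among the 15761 genes well above background on at least 1 array. A cell builds this machinery before it copies its genome. In G1 the origin recognition complex, Cdc6 and Cdt1 load the ring of Mcm2 to Mcm7 onto DNA, and in S phase Cdc45 and the GINS complex turn that ring into an active helicase. Many of these genes are textbook targets of the E2F transcription factors, which the retinoblastoma protein holds back until cyclin D and cyclin E kinases release them.

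The study measured 1 Cy3-labelled array for each of 3 groups of mouse cavernous endothelial cells, primary cells taken from the penis of C57BL/6 mice and kept in medium with serum, heparin and vascular endothelial growth factor A. The groups were cells in normal glucose (5 mmol, the labels' unit), cells in high glucose (30 mmol), and cells in high glucose that received 200 pmol of siRNA against Ninj1, the gene of nerve injury-induced protein 1, by Lipofectamine 2000; glucose exposure lasted 48 h. Each array held RNA pooled from 3 numbered samples, so it stands for 1 mixture and carries no replicate error, and no difference below has a test. The labels do not say whether the cells without Ninj1 siRNA were transfected with a control siRNA. NG, HG and siRNA label stand below for the arrays labelled as these groups. A signal is the background-subtracted spot intensity in arbitrary units, and each difference is on the log2 scale after each array was scaled to its own 75th percentile. That percentile was 1781 (NG), 1731 (HG) and 2026 (siRNA), and folds are taken after the scaling, so a fold of the siRNA label is smaller than the plain ratio of signals.

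Before the members, 3 facts on the labels bear on every comparison. Ninj1 itself gave signals of 20413 (NG), 16291 (HG) and 25539 (siRNA) with its 1 probe, so the siRNA label was 1.34-fold above the HG label after scaling, against the direction that the label would give. The group words in the deposited files' names exchange the HG and siRNA arrays, and the slide positions inside the files (2, 3 and 1 for the NG, HG and siRNA label) are not those in the names (1, 3 and 2). With the file names' words in place of the labels, every difference of the siRNA label from the HG label given here turns its sign and keeps its size. The share of probes well above background lay between 67.1% and 70.6% on the 3 arrays, with 0 saturated spots, and all arrays shared 1 slide and 1 scan. The endothelial label was checked as well: 12 of 16 endothelial markers were well above background on at least 1 array, while Tie1, Emcn, Erg and Sox18 were not on any. Many of the 12 were dim: their median signal was 87.5 (NG), 101 (HG) and 200 (siRNA). Pecam1 read 61.9 (NG), 76.5 (HG) and 72.4 (siRNA), while Kdr was bright at 7440, 7298 and 8278 in the same order. All 12 fibroblast markers were above background, with a median signal of 24894 (NG), 24670 (HG) and 18636 (siRNA).

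Under the siRNA label each of the 54 listed replication genes was higher than under the HG label. The list was chosen with earlier results of these data known, and 2 of 35 further fork and licensing genes, given below, lay below 0. All 54 differences were above 0, from 0.096 for Tyms to 2.55 for Mcm10. The sign for Brca1 was fixed by the rule. It was above background only under the siRNA label, and only a bound above 0 was kept. Of the 54 members, 39 were at least 2-fold higher, while 6.62% of the 15362 genes compared were. None was 2-fold lower, a side that held 8.35% of all genes compared. The median member difference was 1.41, which is 2.65-fold, against 0.018 over all genes compared. At 1.5-fold, 47 of 54 members were higher, beside 14.5% of all genes, and at 3-fold 21 of 54, beside 2.66%. By size, 14 members were above 4-fold and 25 between 2-fold and 4-fold; the other 15 had values under 2-fold, of which that of Brca1 is a lower bound. Repeated spots of the same probe on these arrays give a spread (1 standard deviation) of 0.081 for a difference of single spots. It comes from a median over bright and dim probes together, with no separate value for dim ones. With the main scaling each member's difference was larger than that, for Brca1 as a bound. Other processing put 2 members under it: Gins3 had 0.0084 with cyclic loess and Brca1 0.080 with normexp background correction. The spread covers spot noise and no variation between cultures. The plot of member signals shows the NG and HG labels lying on each other for most genes, with the siRNA label to their right.

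**Figure D1:**
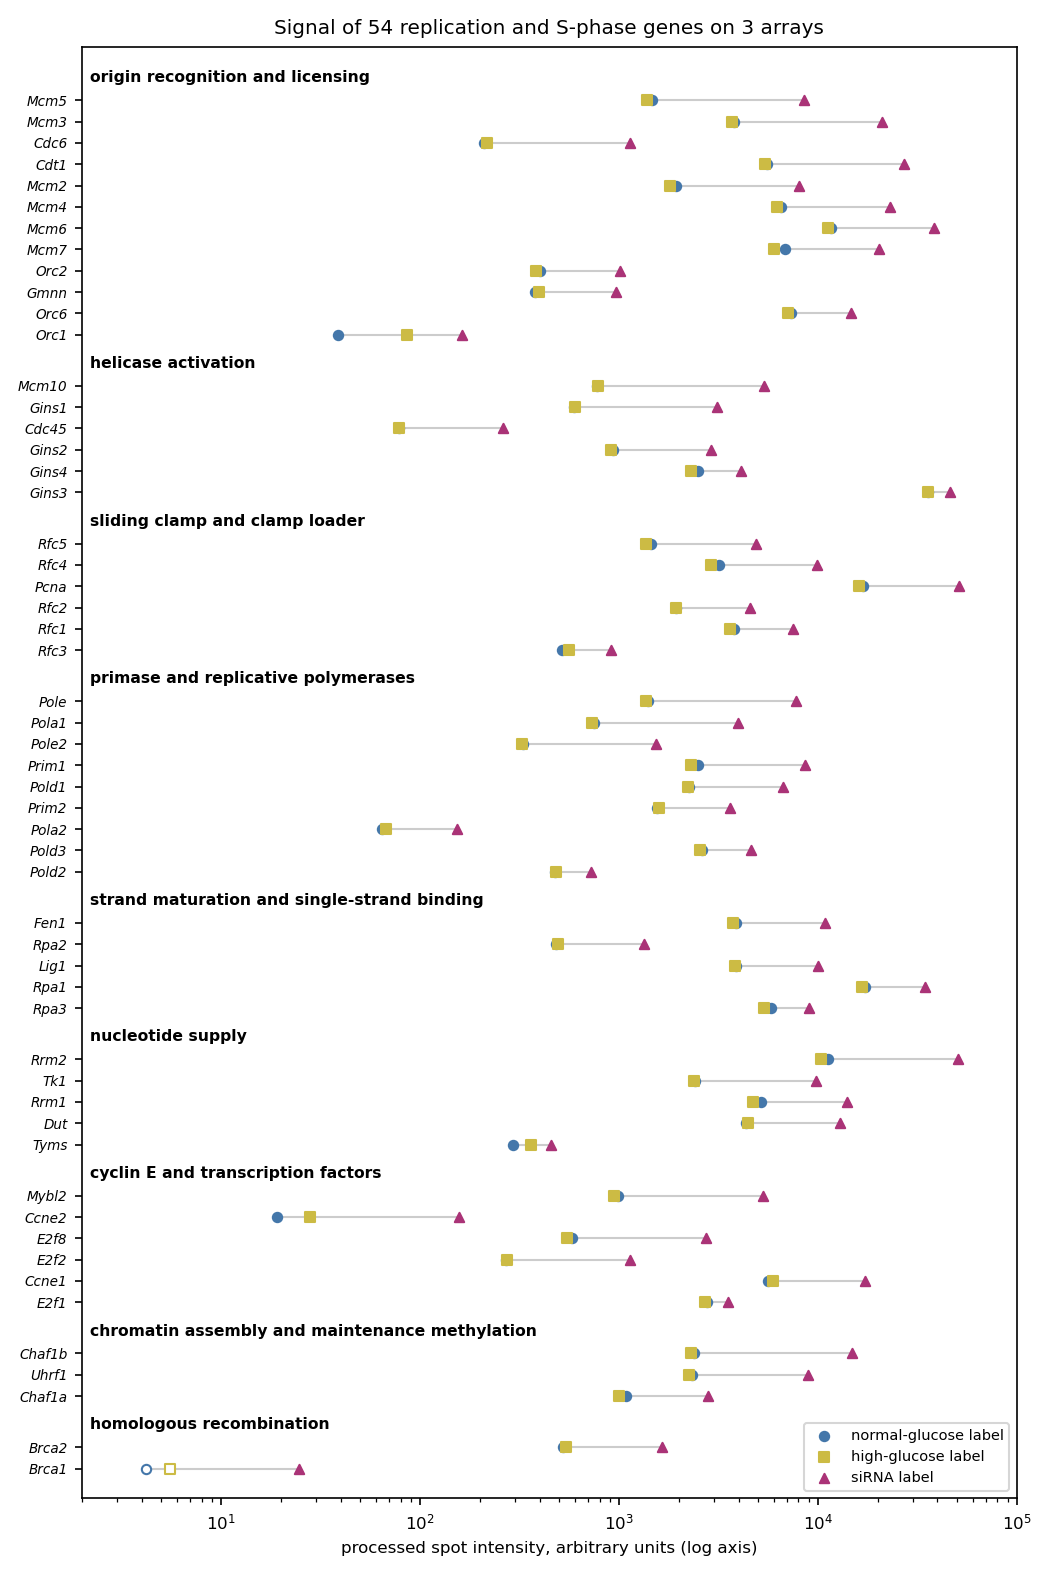
Processed spot intensity in arbitrary units on a log axis for each of the 54 replication and S-phase genes, 1 point per array (circle NG label, square HG label, triangle siRNA label), in groups by role; open symbols are not well above background. The siRNA label lies to the right of the HG label for all 54 genes. The signals shown are not scaled, and after scaling the folds run from 1.07 for Tyms to 5.86 for Mcm10.

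Markers of other cell types also differed between these arrays. Beside each 2-fold count below, 6.62% of all genes compared were 2-fold higher and 8.35% were 2-fold lower. The 1 higher gene among smooth muscle and pericyte markers (11.1%) and among macrophage and leukocyte markers (9.09%) is near that share. The summed signal of the 12 endothelial markers above background was 13783 (NG), 13558 (HG) and 17318 (siRNA), before scaling. Such sums rest on the few brightest genes, here Kdr with 7440, 7298 and 8278. Gene by gene, 4 of 12 were 2-fold lower and 2 were 2-fold higher under the siRNA label than with HG, with a median difference of -0.18. The summed signal of the 12 fibroblast markers was 950136, 937275 and 770245 in the same order; for 6 of 12 the siRNA label was 2-fold or more below the HG label and for 0 above it by that much, with a median difference of -1.08. Smooth muscle and pericyte markers (9 of 10 above background, Myh11 not) summed to 99035, 97837 and 59728; 4 of 9 were 2-fold lower and 1 was 2-fold higher, from -2.33 (Acta2) to 1.24 (Cspg4), with a median of -0.46. Macrophage and leukocyte markers (11 of 12, as Cd68 had no named probe) summed to 34478, 32492 and 40742. Of the 11, 4 were 2-fold lower and 1 was 2-fold higher, with a median of -0.25. The higher one was Cd14, at 5420 (NG), 4989 (HG) and 16711 (siRNA), which weighs heavily in that sum, while 7 of 11 differences were below 0. Epithelial markers (6 of 9; Epcam, Krt8 and Cdh1 not above background) summed to 4497, 4270 and 4866; 0 of 6 were 2-fold lower and 2 were 2-fold higher (Krt18 at 1.90 and Krt19 at 1.55), with a median of 0.48. The part of cell mixture in the replication gene differences was not tested, and in bulk RNA fewer cells of a type and less RNA per cell cannot be told apart.

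Origin licensing genes were among the members with wide gaps: 10 of 12 were at least 2-fold higher under the siRNA label than under the HG label, with a median difference of 1.60. Beside this and each count by role below stands the 6.62% of all genes compared that were 2-fold higher. Mcm2 to Mcm7 encode the subunits of the ring-shaped helicase, and all 6 were past 2-fold. Mcm5 gave signals of 1475 (NG), 1391 (HG) and 8559 (siRNA). Mcm3 read 3784 (NG), 3689.8 (HG) and 20962 (siRNA), and Mcm2 read 1939 (NG), 1807 (HG) and 8074 (siRNA). For each of these the siRNA label stood alone at the high end, with the NG and HG labels close together below it. Mcm4, at 6545 (NG), 6265 (HG) and 23211 (siRNA), was 3.16-fold higher under the siRNA label than under the HG label. Mcm6 was 2.90-fold higher and Mcm7, with signals of 6841 (NG), 6049.9 (HG) and 20232 (siRNA), 2.86-fold higher. The 6 subunits thus spanned differences from 1.51 (Mcm7) to 2.39 (Mcm5).

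The loaders of that ring showed a similar gap. Cdc6, the ATPase that joins the origin complex in G1, gave signals of 209 (NG), 217 (HG) and 1134 (siRNA), a 4.46-fold difference between the siRNA and HG labels. Cdt1, which brings the ring to the origin, read 5565 (NG), 5447 (HG) and 27088 (siRNA), 4.25-fold higher. Gmnn, the gene of geminin, which binds Cdt1 and stops a second round of loading, read 379.7 (NG), 398 (HG) and 963 (siRNA); at 2.07-fold it lay just past the 2-fold line, and with normexp background correction, at a difference of 0.88, it was under it. Among the subunits of the origin recognition complex, Orc2 was 2.27-fold higher, with signals of 403 (NG), 382 (HG) and 1016 (siRNA). Orc6 was 1.76-fold higher and so under 2-fold, with signals of 7329.5 (NG), 7106 (HG) and 14672 (siRNA). Orc1, the subunit whose level is regulated across the cell cycle, was the 1 licensing gene whose HG and NG labels were 2-fold apart: it read 38.5 (NG), 86.1 (HG) and 162 (siRNA). The 3 labels were all apart for Orc1, with the HG label 2.30-fold above the NG label and the siRNA label 1.61-fold above the HG label. This rests on 1 dim probe. With normexp background correction the 2 log2 differences were smaller, at 0.55 and 0.39.

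Promoter sequences are shown here for the 4 members with an E2F-like match whose differences were largest, and for the 2 members with the smallest differences among those with a promoter entry. The RefSeq promoter table of GRCm38.p6 holds windows of 300 bases, 250 before and 50 from each gene's start, and 53 windows of 45 members were found in it. Gmnn, Mcm4, Gins1, Gins2, Gins4, Rfc2, Prim2, Pole and Ccne2 have no entry. Capitals mark an E2F-like match (TTTCCCGC, TTTGGCGC, TTTCGCGC or TTTGCCGC) or the letters CCAAT, read on either strand. Mcm5 lies at chr8:75109259-75109558, plus strand, Mcm3 at chr1:20820263-20820562, minus strand, Pola1 at chrX:93632106-93632405, minus strand, Cdc6 at chr11:98907901-98908200, plus strand, Gins3 at chr8:95633309-95633608, plus strand and Tyms at chr5:30073576-30073875, minus strand. Each window is printed 5′ to 3′ along its gene.
Mcm5: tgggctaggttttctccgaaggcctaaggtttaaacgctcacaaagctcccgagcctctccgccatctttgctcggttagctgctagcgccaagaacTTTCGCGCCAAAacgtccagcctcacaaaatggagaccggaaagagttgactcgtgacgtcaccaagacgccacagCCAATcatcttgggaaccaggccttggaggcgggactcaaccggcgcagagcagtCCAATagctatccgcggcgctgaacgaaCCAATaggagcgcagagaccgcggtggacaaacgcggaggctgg
Mcm3: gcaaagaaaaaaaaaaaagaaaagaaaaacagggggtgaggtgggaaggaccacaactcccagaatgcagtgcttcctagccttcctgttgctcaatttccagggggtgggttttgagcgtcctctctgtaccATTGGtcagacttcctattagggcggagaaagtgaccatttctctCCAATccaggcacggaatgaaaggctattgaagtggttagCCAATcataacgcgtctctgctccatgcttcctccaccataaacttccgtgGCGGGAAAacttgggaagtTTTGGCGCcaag
Pola1: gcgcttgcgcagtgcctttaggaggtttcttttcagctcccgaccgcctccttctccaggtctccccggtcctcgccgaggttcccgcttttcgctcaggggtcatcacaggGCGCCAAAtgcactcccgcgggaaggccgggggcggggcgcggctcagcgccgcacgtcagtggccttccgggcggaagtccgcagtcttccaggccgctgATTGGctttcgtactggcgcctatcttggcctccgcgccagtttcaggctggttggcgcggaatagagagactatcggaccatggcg
Cdc6: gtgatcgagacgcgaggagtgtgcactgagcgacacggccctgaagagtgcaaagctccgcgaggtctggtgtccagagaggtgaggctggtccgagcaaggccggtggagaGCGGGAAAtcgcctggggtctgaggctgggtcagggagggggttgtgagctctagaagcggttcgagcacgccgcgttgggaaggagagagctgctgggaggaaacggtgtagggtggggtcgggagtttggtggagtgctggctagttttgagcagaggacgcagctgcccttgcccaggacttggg
Gins3: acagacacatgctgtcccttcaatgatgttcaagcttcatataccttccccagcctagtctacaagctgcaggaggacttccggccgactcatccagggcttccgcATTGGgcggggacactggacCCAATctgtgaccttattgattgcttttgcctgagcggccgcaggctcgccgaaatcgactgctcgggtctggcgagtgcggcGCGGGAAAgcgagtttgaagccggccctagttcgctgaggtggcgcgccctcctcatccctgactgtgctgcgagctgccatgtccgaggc
Tyms: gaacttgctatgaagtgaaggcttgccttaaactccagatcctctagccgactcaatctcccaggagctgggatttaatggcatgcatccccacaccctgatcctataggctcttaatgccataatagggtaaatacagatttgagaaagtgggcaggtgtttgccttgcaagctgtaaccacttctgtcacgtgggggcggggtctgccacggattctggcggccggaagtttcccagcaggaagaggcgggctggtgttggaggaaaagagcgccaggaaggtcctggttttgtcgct
In Mcm5 the 12 capitals TTTCGCGCCAAA hold 2 overlapping E2F-like matches on opposite strands, the first beginning at base -153 from the start, and 3 CCAAT matches follow. In Mcm3 the 2 E2F-like matches lie after the start, beginning at bases 20 and 39. Pola1 and Cdc6 each have 1, both beginning at base -138. The Gins3 window holds 1 as well, at base -41, and the Tyms window none. A match is a description of letters and not a measured binding site.

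Over the members as a set, 17 of 53 promoter windows held an E2F-like match (32.1%), against 2.26% of all 32851 windows of the table and 3.41% of the windows of genes compared on these arrays. The 17 windows belong to 17 of the 45 members with an entry and hold 23 matches: 8 of TTTCCCGC, 8 of TTTGGCGC, 7 of TTTCGCGC and 0 of TTTGCCGC. Mcm3, Mcm5, Mcm6, Mcm7 and Rfc3 had at least 2. Their centres lay between -181.5 and 43.5 bases from the start with a median of -23.5, and 10 of 23 lay after the start; 1, in Mcm7, overlapped a CCAAT match. The letters CCAAT, the core of the site of the NF-Y factor, stood in 31 of 53 windows (58.5%), against 37.4% of all windows and 37.3% of the windows of genes compared. TTTGAA, the core of the CHR element known from genes of mitosis, stood in 7 of 53 (13.2%), against 17.9% of all windows and 13.0% of the windows of genes compared, so the members are near the latter. The E2F-like share is not particular to the members. Further fork and licensing genes, described below, held such a match in 10 of 35 windows (28.6%). RB and E2F circuit genes held one in 9 of 33 (27.3%), and polymerases of repair and mitochondria in 0 of 11. The 24 mitotic genes of a comparison list had another make-up over the 22 with an entry: 1 of 23 windows held an E2F-like match (4.35%), 18 of 23 TTTGAA (78.3%) and 19 of 23 CCAAT (82.6%). The members were chosen by function and not by sequence, and these shares carry no test.

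**Figure D2:**
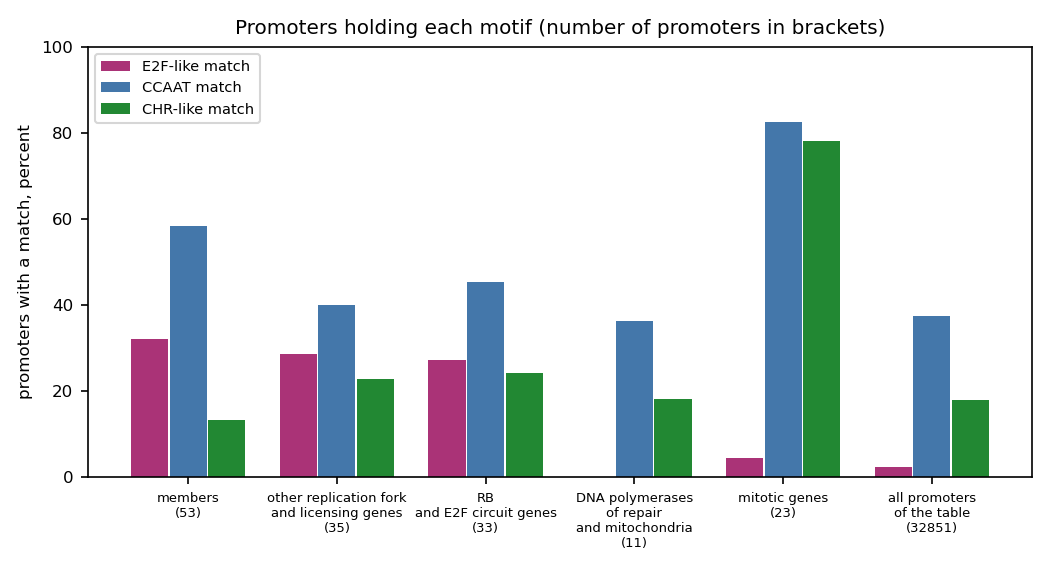
Percent of 300-base promoter windows with an E2F-like, a CCAAT or a TTTGAA (CHR-like) match, for the members, 4 lists of other genes and all windows of the table, with the number of windows in brackets. The E2F-like share is 32.1% for the members and 2.26% for all windows. It is 28.6% for other fork and licensing genes and 27.3% for RB and E2F circuit genes. The TTTGAA share is 13.2% for the members and 78.3% for the mitotic genes.

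Members with and without an E2F-like match overlapped in the size of their difference. The 17 genes with an E2F-like match had a median difference of 1.54 between the siRNA and HG labels, and 13 of 17 were past 2-fold. The 28 with a window and no match had a median of 1.31, with 19 of 28 past 2-fold, and the 9 without an entry a median of 1.45, with 7 of 9. Both ranges were wide: from 0.14 (Gins3) to 2.39 (Mcm5) with a match, and from 0.096 (Tyms) to 2.55 (Mcm10) without one.

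Helicase activation genes held both the widest and one of the narrowest gaps. Mcm10, which helps the loaded helicase to start unwinding, gave signals of 774 (NG), 783 (HG) and 5369 (siRNA), and its 5.86-fold difference between the siRNA and HG labels was the largest of the 54. Cdc45, the helicase cofactor, read 78.6 (NG), 78.6 (HG) and 262 (siRNA), 2.85-fold higher. The 4 subunits of GINS, a complex whose proteins work in equal numbers, were apart in this respect. Gins1 read 598 (NG), 603 (HG) and 3097 (siRNA), 4.38-fold higher under the siRNA label than under the HG label, and Gins2 was 2.72-fold higher. Gins4 was 1.52-fold higher, with signals of 2489.8 (NG), 2318 (HG) and 4115 (siRNA). Gins3 read 35725 (NG), 35657 (HG) and 45997 (siRNA), so after scaling its 3 labels lay within 1.13-fold, and its signal was already high under the NG and HG labels. Over the 6 genes the median difference was 1.48, with 4 of 6 past 2-fold.

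The sliding clamp and its loader differed by a median of 1.22, with 4 of 6 genes past 2-fold. Pcna, the clamp that tethers polymerases to DNA, gave signals of 16852 (NG), 16105.5 (HG) and 51182.5 (siRNA), a 2.71-fold difference. The RefSeq gene table also lists pseudogenes of Pcna and of Tyms, so the source of these 2 signals is uncertain. The clamp loader has a large subunit and 4 small ones. Rfc5 read 1457 (NG), 1362 (HG) and 4871 (siRNA) and Rfc4 read 3185 (NG), 2899.9 (HG) and 9868 (siRNA), 3.05-fold and 2.91-fold higher under the siRNA label than under the HG label. Rfc2, at 1943 (NG), 1937 (HG) and 4549 (siRNA), sat on the 2-fold line with 2.01-fold, and with normexp correction its difference was 0.95. The large subunit Rfc1 was 1.76-fold higher and Rfc3, the least of the 5, 1.39-fold, with signals of 517 (NG), 562 (HG) and 916 (siRNA).

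Of the primase and replicative polymerase genes, 5 of 9 were at least 2-fold higher and the median difference was 1.36. By fold of the brightest probe, each catalytic subunit stood above its partners; for Pole this did not hold with the mean over its probes, at a difference of 1.61. Pole, the catalytic subunit of the leading-strand polymerase epsilon, read 1398 (NG), 1365 (HG) and 7784 (siRNA), a 4.87-fold difference. Pola1, the catalytic subunit of polymerase alpha, which begins each strand with primase, read 746 (NG), 733 (HG) and 3965 (siRNA), 4.62-fold. Pold1, the catalytic subunit of the lagging-strand polymerase delta, read 2249 (NG), 2221 (HG) and 6675 (siRNA), 2.57-fold. In each case the siRNA label was high and the other labels were low and near each other. The accessory subunits of polymerase delta had smaller gaps: Pold3 was 1.53-fold higher and Pold2, with signals of 478 (NG), 482 (HG) and 727 (siRNA), 1.29-fold. Pola2, the partner of Pola1, had 1.94-fold from dim signals of 64.6 (NG), 67.7 (HG) and 154 (siRNA). Pole2, a partner of Pole in polymerase epsilon, came near to it with 4.05-fold and signals of 329 (NG), 325 (HG) and 1538 (siRNA). The 2 primase genes were 3.20-fold (Prim1, the catalytic subunit) and 1.96-fold (Prim2) higher, the latter just under the 2-fold line.

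Genes that finish and protect new strands differed by a median of 1.16, with 3 of 5 past 2-fold. Fen1, the nuclease that trims the ends of Okazaki fragments, read 3896 (NG), 3729 (HG) and 10834 (siRNA), 2.48-fold higher under the siRNA label than under the HG label. Lig1, the ligase that seals them, read 3873 (NG), 3839.9 (HG) and 10045.5 (siRNA), 2.23-fold. The single-strand binding protein RPA has 3 subunits, and they split around the line: Rpa2 was 2.31-fold higher, Rpa1 1.78-fold and Rpa3 1.42-fold. Rpa2 read 484 (NG), 492 (HG) and 1331 (siRNA), Rpa1 17284 (NG), 16709.6 (HG) and 34809.6 (siRNA) and Rpa3 5826 (NG), 5396 (HG) and 8987 (siRNA), so each was highest under the siRNA label.

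In nucleotide supply, 4 of 5 genes were past 2-fold and the fifth was the member with the smallest difference. Rrm2, the small subunit of ribonucleotide reductase, whose level follows S phase, gave signals of 11229 (NG), 10431 (HG) and 50688 (siRNA), 4.15-fold higher under the siRNA label than under the HG label. Its partner Rrm1 read 5169 (NG), 4721 (HG) and 14110.0 (siRNA), 2.55-fold. Tk1, the cytosolic thymidine kinase of dividing cells, read 2419 (NG), 2374 (HG) and 9819 (siRNA), 3.53-fold. Dut, which removes dUTP, was 2.49-fold higher, with signals of 4352 (NG), 4460.1 (HG) and 12986 (siRNA). Tyms, the thymidylate synthase, read 293 (NG), 364 (HG) and 455 (siRNA). For Tyms the siRNA and HG labels differed by 0.096, about the spread of single spots, and the HG label was above the NG label by 0.35.

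Cyclin E and the transcription factors of the switch had a median difference of 1.97, the highest of the roles, and 5 of 6 were past 2-fold. Ccne1 and Ccne2 encode cyclin E, the partner of Cdk2 at the start of S phase. Ccne1 read 5614 (NG), 5986 (HG) and 17194 (siRNA), 2.45-fold higher under the siRNA label than under the HG label. Ccne2 was dim, with 19.2 (NG), 28.0 (HG) and 157 (siRNA), and 4.77-fold higher. With normexp background correction its difference was 1.18 in place of 2.26. The E2F genes differed among themselves. E2f2, an activator, read 269.7 (NG), 274 (HG) and 1144 (siRNA), 3.57-fold. E2f8, an atypical E2F that acts as a repressor, read 583 (NG), 546 (HG) and 2755 (siRNA), 4.31-fold. E2f1, the classical activator, read 2787 (NG), 2714 (HG) and 3552 (siRNA), and its difference of 0.16 was the third smallest of the members. Mybl2, which works with the MuvB complex on genes of later phases, was 4.81-fold higher, with signals of 991 (NG), 945 (HG) and 5324 (siRNA).

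All 3 chromatin genes were past 2-fold, with a median of 1.75. Chaf1b and Chaf1a encode subunits of the factor that places histones behind the fork: Chaf1b read 2387 (NG), 2309 (HG) and 14921 (siRNA), 5.52-fold and second only to Mcm10, while Chaf1a read 1083 (NG), 1002 (HG) and 2793 (siRNA), 2.38-fold. Uhrf1, which guides maintenance methylation to new DNA, read 2332 (NG), 2264 (HG) and 8917 (siRNA), 3.36-fold. Brca2, a gene of homologous recombination, was 2.59-fold higher, with signals of 526 (NG), 542 (HG) and 1646 (siRNA). Brca1, another recombination gene, read 4.18 (NG), 5.51 (HG) and 24.7 (siRNA) and was well above background only under the siRNA label. It was therefore at least 1.29-fold higher under the siRNA label than under the HG label, where the dim array was given the lowest signal well above background on it; without this floor the difference was 1.93.

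**Figure D3:**
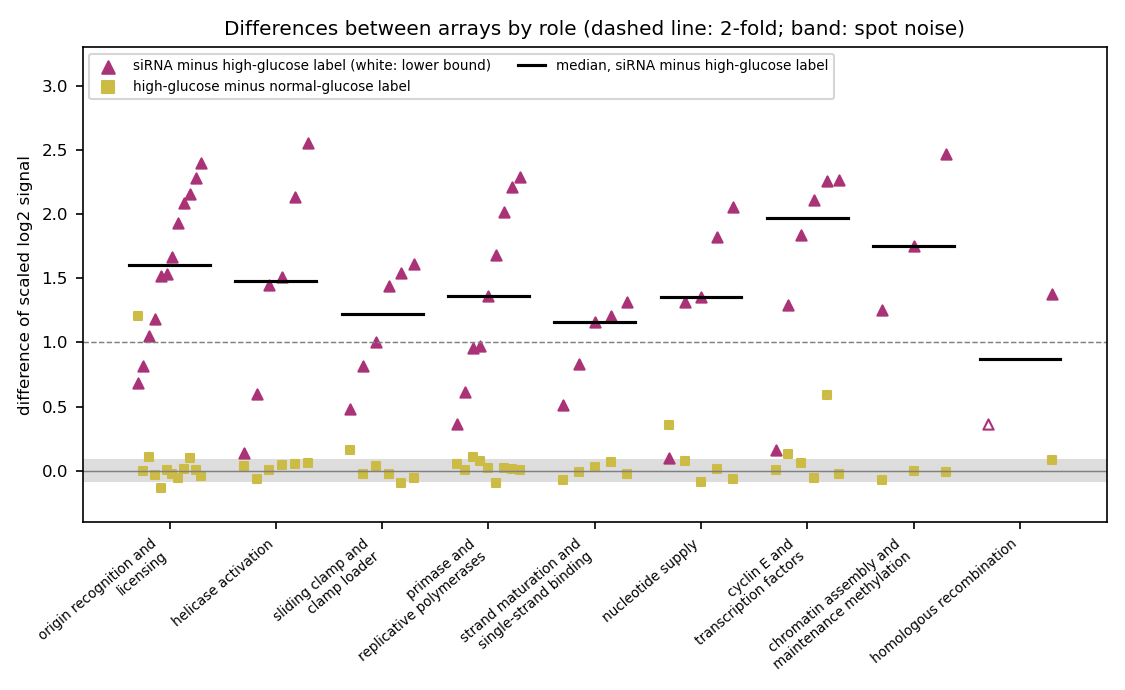
Differences of scaled log2 signal by role, 1 point per gene: triangles for siRNA minus HG label (white for a lower bound), squares for HG minus NG label, black lines for the role medians of the triangles. The grey band is the spread of 0.081 for a difference of single spots and the dashed line marks 2-fold; all triangles lie above the band, while 40 of 53 squares lie within it.

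The comparison of the siRNA label with the NG label shares the siRNA array with the one above, so the 2 are not independent and their values are only set side by side. Here 42 of 54 members were at least 2-fold higher, with 6.48% of 15287 genes compared on that side, and 0 were 2-fold lower, with 8.09% of genes there. At 3-fold, 21 of 54 members were higher, beside 2.56% of genes. The median member difference was 1.44 and the range ran from 0.16 (E2f1) to 2.84 (Ccne2), the latter from a dim NG signal; with normexp correction Ccne2 had 1.23. Mcm10 differed by 2.61 from the NG label and 2.55 from the HG label, Chaf1b by 2.46 and 2.46, and Mcm5 by 2.35 and 2.39. By construction the 2 values part where the HG and NG signals differ. Orc1 had 1.89 and 0.68, Ccne2 2.84 and 2.26, and Tyms 0.45 and 0.096. Orc1, Pola2 and Prim2 were past 2-fold only against the NG label. With normexp correction 5 of the 42 were under 2-fold there: Orc1 (0.94), Gmnn (0.96), Cdc45 (0.99), Rfc2 (0.99) and Pola2 (0.58).

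The HG and NG labels lay close together for nearly all replication genes. The HG label was at least 2-fold above the NG label for 1 of 53 members, Orc1, beside 0.816% of 15081 genes compared, and for 0 members 2-fold below, beside 0.69%. At 1.5-fold it was above for 2 of 53, Orc1 and Ccne2, beside 1.52% of genes, and at 3-fold for 0 of 53, beside 0.55%. The median difference was 0.0051, and over all genes compared it was -0.013. Differences of 40 of 53 members were within the single-spot spread of 0.081, 9 were above it and 4 below. The 4 below were Mcm7 (-0.14), Rfc4 (-0.094), Prim1 (-0.092) and Rrm1 (-0.090). Mcm10, Cdt1 and Pcna, with 0.058, 0.010 and -0.024, are examples of genes within it. The wider values lay with dim spots: the 4 members whose NG signal was under 200 had differences between 0.042 (Cdc45) and 1.20 (Orc1), and the 49 with a signal of 200 or more lay between -0.14 (Mcm7) and 0.35 (Tyms). With normexp background correction Orc1 had a difference of 0.55 and Ccne2 one of 0.052, so both were under 1.5-fold and no member was past 2-fold.

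For 7 members a further probe was on the array. Of these, 6 were measured under both labels, and for all 6 the siRNA label was above the HG label and above the NG label, as with the first probe. The second Mybl2 probe read 131 (NG), 135 (HG) and 962 (siRNA), a difference of 2.60 between siRNA and HG labels against 2.27 for the first. Second probes gave 2.50 against 2.46 for Chaf1b, 1.43 against 1.29 for Ccne1 and 1.09 against 1.54 for Rfc4. The widest gap between 2 probes was that of Cdc6, 1.52 against 2.16. The second Uhrf1 probe, dim at 25.5 (NG), 37.5 (HG) and 198 (siRNA), gave 2.17 against 1.75. The second Pole probe was above background only under the siRNA label and at least 1.90-fold higher there than under the HG label, and the mean over both Pole probes gave a difference of 1.61 against 2.28. Between HG and NG labels only 3 of the 6 second probes had the sign of the first.

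The rest of the replication machinery was looked at through 35 further fork and licensing genes. Of these 19 of 35 were at least 2-fold higher under the siRNA label than under the HG label, beside 6.62% of all genes compared. On the lower side 0 were past 2-fold, beside 8.35% of all genes, and the median difference was 1.06. Recql4, a helicase needed to start replication, read 325 (NG), 341 (HG) and 2439 (siRNA), and its 6.12-fold was above that of every member. Asf1b, a histone chaperone, was 5.17-fold higher, Dscc1, a subunit of an alternative clamp loader, 4.59-fold, and Ticrr, which helps to activate origins, 4.56-fold. The list also held 2 genes below 0: Orc4, another origin recognition subunit, read 552 (NG), 503 (HG) and 455 (siRNA) with a difference of -0.37, and Rnaseh2c, a subunit of the nuclease that removes RNA from DNA, had -0.15. Origin recognition subunits therefore ran from -0.37 (Orc4) over 0.42 (Orc3) and 0.54 (Orc5) to 1.18 (Orc2). Clspn, the checkpoint adaptor claspin, resembled Orc1 in reading 90.9 (NG), 212 (HG) and 461 (siRNA).

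Polymerases that do not carry the main fork had smaller differences. Of 13 polymerase genes of repair and mitochondria, 1 was at least 2-fold higher (7.69%, near the 6.62% of all genes compared) and 0 were 2-fold lower, and the median difference was 0.15. The 1 was Polq, the polymerase of end joining by microhomology, with 180.1 (NG), 174 (HG) and 648 (siRNA) and 3.17-fold. Polb, of base excision repair, differed by 0.35, Polg, of mitochondria, by 0.25, and Rev3l, the catalytic subunit of polymerase zeta, by -0.50. Genes of mitosis, by contrast, were higher nearly throughout: 23 of 24 were past 2-fold with a median of 1.72. Top2a, the topoisomerase of chromosome separation, had 2.29, and Cenpf, a kinetochore gene that was dim, had the lowest value as a bound of 0.46. Ube2c, of the anaphase-promoting complex, had 2.23 and Bub1, of the spindle checkpoint, 2.11. The mitotic median was above the member median, and the members were more spread out (SD over genes 0.66 for the members and 0.40 for the mitotic genes).

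**Figure D4:**
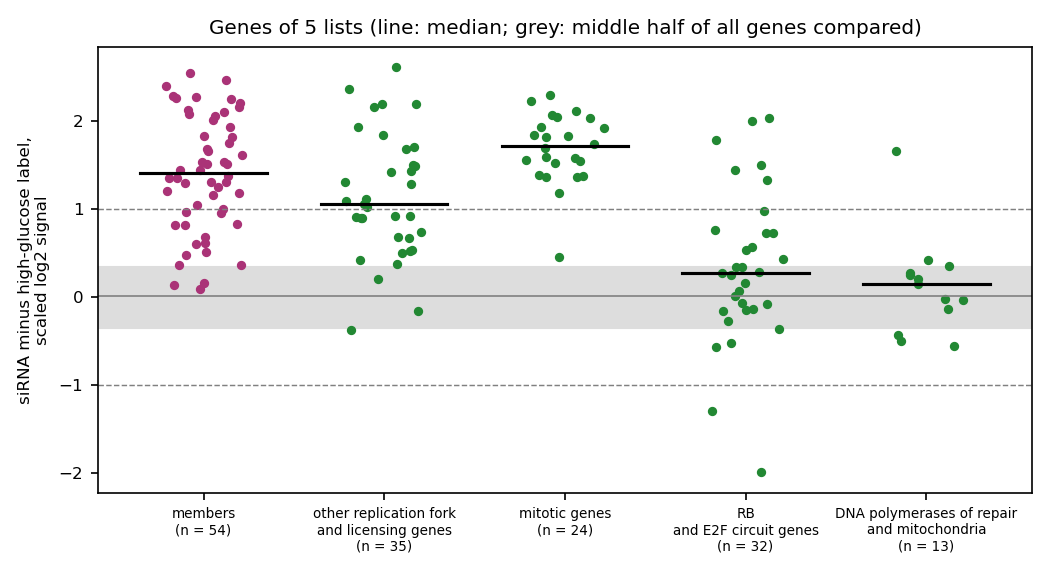
Differences of scaled log2 signal, siRNA minus HG label, for the 54 members and 4 lists of other genes, 1 point per gene; black lines are medians, the grey band holds the central 50% of all genes compared and dashed lines mark 2-fold. Medians are 1.41 for members, 1.06 for other fork and licensing genes, 1.72 for mitotic genes, 0.28 for RB and E2F circuit genes and 0.15 for the other polymerases.

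A further list held 33 genes of the RB and E2F circuit, not all of them upstream of the members, and 32 could be compared (Skp2 had no named probe). The siRNA label was past 2-fold above the HG label for 6 of them and past 2-fold below it for 2, beside 6.62% and 8.35% of all genes compared, and the median difference was 0.28. The 6 are 18.8% of the 32, and the 2 lower ones are a share no larger than that of all genes. The 6 were Ccna2, E2f7, Fbxo5, Rbl1, Lin9 and Cdk2. Ccna2, the S-phase cyclin A, read 1253 (NG), 1195 (HG) and 5722 (siRNA), 4.09-fold. E2f7, like E2f8 an atypical repressor, read 693 (NG), 670.4 (HG) and 3149.8 (siRNA), 4.01-fold. Cdk2, the kinase partner of cyclins E and A, was 2.51-fold higher, Rbl1, the pocket protein p107, 2.83-fold, and Lin9, of the MuvB complex, 2.73-fold. Fbxo5, an inhibitor of the anaphase-promoting complex, was 3.46-fold higher.

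The 2 lower genes were inhibitors of cyclin-dependent kinases. Cdkn1c, the gene of p57, read 3824 (NG), 4227 (HG) and 1245 (siRNA), a difference of -1.99. Cdkn2b, the gene of p15, read 23155 (NG), 21205 (HG) and 10166 (siRNA), a difference of -1.29. The siRNA label was the low one for both, and the NG and HG labels lay close together. Other inhibitors differed less, and not all in that direction: -0.14 for Cdkn1a (p21), -0.37 for Cdkn1b (p27), -0.14 for Cdkn2a (p16 and p19Arf), 0.16 for Cdkn2c (p18) and -0.15 for Cdkn2d (p19). Rb1 itself had -0.083 and its relative Rbl2 -0.57. Among D cyclins and their kinases the differences were -0.27 for Ccnd1, 0.25 for Ccnd2, -0.52 for Ccnd3, 0.57 for Cdk4 and 0.43 for Cdk6. The remaining E2F genes were within 2-fold, at 0.34 (E2f3), 0.070 (E2f4), 0.28 (E2f5) and 0.35 (E2f6). Across the 8 E2F genes, then, E2f2, E2f7 and E2f8 were past 2-fold in these arrays and the other 5 were not.

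**Figure D5:**
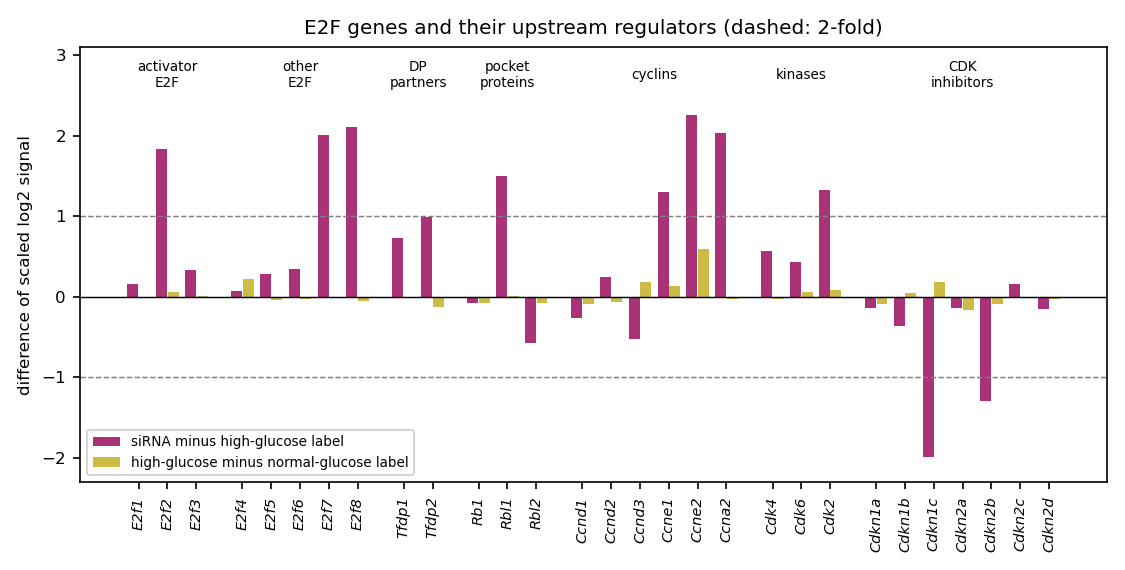
Differences of scaled log2 signal for E2F genes, their DP partners, pocket proteins, cyclins, kinases and kinase inhibitors: dark bars for siRNA minus HG label, light bars for HG minus NG label, 1 value per gene and no replicates. E2f2, E2f7 and E2f8 are past 2-fold, E2f1 and E2f3 are at 0.16 and 0.34, and Cdkn1c and Cdkn2b are the bars below the lower dashed line.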

How the data were processed

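Total RNA of the 3 pooled groups was hybridised to Agilent 1-colour arrays, and the deposited files hold spot intensity extracted with Agilent Feature Extraction 11.0.1.1, per the file headers, as a background-subtracted processed signal. The value table that the authors deposited for the series is linear intensity too: for 100% of 39030 single-spot probes it equalled the processed signal within 0.1%, with column medians of 118 (normal glucose), 118 (high glucose) and 129 (siRNA). Its scale is thus linear and not centred, and its way of combining repeated spots is unknown. Groups were taken from the labels. From the deposited intensity, log2 was taken, spots of a probe were averaged without outlier spots, and each array's 75th percentile was subtracted.

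Probes were named by accession through the RefSeq gene table of GRCm38.p6: 26055 of 39429 probes (66.1%) had a name and 13374 were left out. A gene was represented by its brightest probe well above background on at least 1 array, and further probes of members are reported. A probe is above background where the software marked 50% or more of its spots so. If it was above background on a single array of a pair, the difference is a bound, taken against the lowest value above background on the dim array or the probe's own value there, whichever was higher. A bound was kept only where it left the array above background as the higher one. A difference counts at 2-fold. Array number, 1 per group, limits the precision, and no test was made. Spot noise comes from 300 probes with 10 spots each, above background on every array.

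The members, lists and tests were chosen with earlier results of these data known. All members may be named; of each other list the highest and lowest genes and up to 4 past 2-fold in each direction were named, and circuit genes, the other polymerases and a few more were named after their values were seen. Steps were tested on simulated data. Promoter windows of RefSeq were searched for fixed letters. Python 3.11.15, numpy 2.4.6, pandas 2.3.3, matplotlib 3.10.9, R 4.3.3 and limma 3.58.1 were used. The alternatives tried were cyclic loess, quantile normalization, scaling to a median, normexp with an offset of 50, the value table, 2 other filters, the mean over probes, other thresholds and 2 other assignments of arrays. Normexp was run on the median spot and median background signals that the files used here carry.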

Additional observations from a re-analysis of the deposited data

How the results depend on the processing

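With 1 array per group no replicate could be left out. No paired analysis was possible because each group has 1 array and the labels pair no samples. Over 8 other ways of scaling, correcting, filtering and averaging, 37 of 39 members stayed past 2-fold between the siRNA and high-glucose labels (not Gmnn and Rfc2), and 37 of 42 between the siRNA and normal-glucose labels (not Orc1, Gmnn, Cdc45, Rfc2 and Pola2). No member changed sign in either comparison, though Gins3 went from 0.14 to 0.0084 between siRNA and high-glucose labels with cyclic loess. Several of the 8 settings could not move most members, so they are not 8 separate checks. The value table equals the processed signal for single-spot probes, and each member's brightest probe had 1 spot. The mean over probes left the 47 members with 1 probe unchanged. The other filters left members above background on every array unchanged. Between high-glucose and normal-glucose labels 12 of 53 members changed sign in at least 1 setting, all from values near 0. Normexp correction gave a median of 1.31 for siRNA against high glucose and 0 members past 2-fold for high glucose against normal glucose. A 3-fold threshold gave 21, 21 and 0 members for siRNA against high glucose, siRNA against normal glucose and high against normal glucose, and a 1.5-fold threshold gave 2 for the last. With the high-glucose and siRNA arrays exchanged, as the file names' words have them, siRNA against high glucose had 39 members 2-fold lower and a median of -1.41, with role medians of -1.60 (licensing), -1.48 (helicase activation), -1.22 (clamp and loader), -1.36 (polymerases), -1.16 (strand maturation), -1.35 (nucleotide supply), -1.97 (cyclin E and transcription factors) and -1.75 (chromatin). Against normal glucose the siRNA group then had 1 member past 2-fold, a median of 0.0051 and role medians of -2.6e-05 (licensing), -0.026 (clamp and loader), -0.0075 (strand maturation) and -0.0070 (chromatin), and high against normal glucose had 42 members and a median of 1.44. Arrays assigned by the slide positions in the file names together with the group words there, a choice made after seeing the data, turned it another way. Here siRNA against high glucose had 1 member and a median of 0.0051 with these same 4 small role medians. With this assignment siRNA against normal glucose had 39 members lower, a median of -1.41 and the 8 negative role medians above. High against normal glucose then had 42 members lower with a median of -1.44. These assignments only rename arrays, which shows the cause. The cause of the other changes was not tested. Among the wider moves between siRNA and high glucose, Ccne2 went from 2.26 to 1.18 with normexp correction. Brca1 went from a bound of 0.36 to 1.93 without the filter on dim probes, and Pole from 2.28 to 1.61 with the mean over its probes. Between siRNA and normal glucose, Orc1 went from 1.89 to 0.94 with normexp correction.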
